A study of Mus musculus with 4 samples.

Results

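The subject is 8 genes at the nuclear end of the Wnt pathway in mouse embryonic stem cells. They are the TCF/LEF factor genes Lef1, Tcf7, Tcf7l1 and Tcf7l2, the beta-catenin gene Ctnnb1, the destruction complex gene Apc, and the Wnt target genes Axin2 and Sp5. They were chosen by name from the pathway, and all 8 are among the 13815 rows of the mRNA table. The mRNA libraries, made from polyadenylated RNA, come from Dgcr8-/-, Dicer-/- and WT cells, which the labels place in the V6.5 strain and which grew in serum with leukaemia inhibitory factor. A small RNA library of WT cells completes the series. Drosha and its partner DGCR8 free the hairpin of a primary miRNA transcript, and Dicer cuts that hairpin to the mature miRNA, and loss of either is known to remove the canonical miRNAs. How the alleles were made is not stated in the labels. With a single library per group there is no replicate check on any difference, and therefore no test and no p-value. Cell line, culture and genotype cannot be told apart.

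In the canonical Wnt pathway, a destruction complex built on APC and Axin marks beta-catenin for degradation until a Wnt ligand binds Frizzled and LRP receptors. Beta-catenin then enters the nucleus and joins TCF/LEF factors at target genes, some of which, such as Axin2, feed back to limit the signal. In mouse embryonic stem cells TCF7L1 acts mainly as a repressor of self-renewal genes, and Wnt signals that relieve this repression favour the undifferentiated state.

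The mRNA table holds 11123498 counts for Dgcr8-/- cells, 12309100 for Dicer-/- cells and 9931625 for WT cells. Levels are counts scaled to a total of 1000000 (CPM), and 1 CPM is 11.1, 12.3 and 9.93 counts in that order. The CPM is not divided by transcript length, so levels are compared between libraries and not between genes. Intervals are exact 95% intervals for counting error only. Counts from 2 to 9 were even for 74.8%, 69.7% and 69.6% of the genes that had them in Dgcr8-/-, Dicer-/- and WT cells. Both mates of a read pair may therefore have been counted. Intervals are given again with halved counts for Lef1, Tcf7, Axin2, Sp5, part of the TCF count ratios and a few low-count genes of the role lists. The other intervals are not repeated and would be wider with halved counts. The deleted genes still gave counts. Dgcr8 had 232 counts in Dgcr8-/-, 1043 in Dicer-/- and 523 in WT cells, 2.52-fold lower in Dgcr8-/- than in WT cells (2.16 to 2.96). Dicer1 had 1419 counts in Dgcr8-/-, 247 in Dicer-/- and 794 in WT cells, 3.98-fold lower in Dicer-/- than in WT cells (3.45 to 4.61). The 8 stem cell markers, Pou5f1, Sox2 and Nanog among them, were above 1 CPM in every library, with summed levels of 7084 CPM in Dgcr8-/-, 7785 CPM in Dicer-/- and 10965 CPM in WT cells. They did not move together: Sox2 had 523 and 532 CPM in Dgcr8-/- and Dicer-/- cells, against 382 CPM in WT cells, and Nanog and Sall4 were also above WT in both, whereas Dppa5a, Tdgf1, Pou5f1 and Zfp42 were below WT in both.

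Tcf7l1, the main TCF gene of the undifferentiated state, had 155 CPM (1728 counts) in Dgcr8-/- cells and 129 CPM (1582 counts) in Dicer-/- cells, against 59.3 CPM (589 counts) in WT cells. It was 2.62-fold higher in Dgcr8-/- than in WT cells (2.38 to 2.88) and 2.17-fold higher in Dicer-/- than in WT cells (1.97 to 2.39). The knockouts lay close to each other, with Dgcr8-/- cells 1.21-fold above Dicer-/- cells (1.13 to 1.29). On the log2(CPM + 1) scale used for calls, the difference between Dicer-/- and WT cells was 1.10, just past the 2-fold limit of 1. It was 0.998 with TMM scaling and 0.992 with median-ratio scaling, so this call depends on the scaling.

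Tcf7l2, which encodes the TCF factor known from intestinal stem cells and can activate or repress, differed most from WT among the 8 genes on the log2(CPM + 1) scale; by the plain CPM ratio Lef1, Sp5 and Axin2 were farther from WT in Dicer-/- cells, on few counts. It had 24.2 CPM (269 counts) in Dgcr8-/- cells and 24.9 CPM (306 counts) in Dicer-/- cells, against 6.34 CPM (63 counts) in WT cells. Both knockouts were high and WT was low. The ratio to WT was 3.81 (2.89 to 5.10) in Dgcr8-/- cells and 3.92 (2.98 to 5.23) in Dicer-/- cells. The ratio of Dgcr8-/- to Dicer-/- cells was 0.973, with an interval of 0.823 to 1.15 that includes equal levels. Of all genes tested, 3.80% had a larger log2 ratio than Tcf7l2 in Dgcr8-/- over WT and 5.11% in Dicer-/- over WT.

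Tcf7, which encodes a TCF factor that mostly activates, did not follow them. It had 32.2 CPM (358 counts) in Dgcr8-/- cells and 20.3 CPM (250 counts) in Dicer-/- cells, against 26.0 CPM (258 counts) in WT cells. WT lay between the knockouts. Tcf7 was 1.24-fold higher in Dgcr8-/- than in WT cells (1.05 to 1.46) and 1.28-fold lower in Dicer-/- than in WT cells (1.07 to 1.53). With halved counts both intervals include equal levels (0.982 to 1.57 for Dgcr8-/- over WT and 0.606 to 1.01 for Dicer-/- over WT). Dgcr8-/- cells were 1.58-fold above Dicer-/- cells (1.34 to 1.87; 1.25 to 2.01 with halved counts). No call was made for Tcf7 in any pair.

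Lef1, which encodes the factor that gives the family its name and is itself a Wnt target in many tissues, was near the detection limit except in Dicer-/- cells. It had 0.449 CPM (5 counts) in Dgcr8-/- cells and 3.25 CPM (40 counts) in Dicer-/- cells, against 0.503 CPM (5 counts) in WT cells. It was 6.45-fold higher in Dicer-/- than in WT cells (2.55 to 21.0; 1.96 to 71.2 with halved counts). In Dgcr8-/- cells it was 7.23-fold lower than in Dicer-/- cells (2.85 to 23.5; 2.20 to 79.7 with halved counts). The pair of Dgcr8-/- and WT, both below 1 CPM, was not tested, and its ratio of 0.893 has an interval of 0.205 to 3.88.

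The balance among the TCF genes can be read inside each library, where the scaling between libraries cancels. The count of Tcf7l1 was 4.83 times that of Tcf7 in Dgcr8-/- cells and 6.33 times in Dicer-/- cells, against 2.28 times in WT cells. This is a ratio of ratios to WT of 2.11 in Dgcr8-/- cells (1.75 to 2.55) and of 2.77 in Dicer-/- cells (2.26 to 3.40). For Tcf7l2 over Tcf7 the ratio of ratios was 3.08 in Dgcr8-/- cells (2.22 to 4.30) and 5.01 in Dicer-/- cells (3.60 to 7.03). For Tcf7l2 over Tcf7l1 it was 1.46 in Dgcr8-/- cells (1.08 to 1.98) and 1.81 in Dicer-/- cells (1.35 to 2.45). With halved counts the interval of Tcf7l2 over Tcf7l1 in Dgcr8-/- cells, 0.964 to 2.30, includes equal balance, and those of the other ratios of ratios to WT do not. In both knockout libraries the mix of TCF transcripts therefore held more Tcf7l1 and Tcf7l2 per Tcf7 than in the WT library.

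Ctnnb1 had the highest counts of the 8 genes and was nearly level. It had 769 CPM (8559 counts) in Dgcr8-/- cells and 802 CPM (9872 counts) in Dicer-/- cells, against 697 CPM (6919 counts) in WT cells. The log2(CPM + 1) ratio was 0.14 in Dgcr8-/- over WT and 0.20 in Dicer-/- over WT, where the median of all genes tested was 0.11 and 0.10. TMM scaling moved those medians by -0.11 and -0.10, and median-ratio scaling by -0.13 and -0.11. The Ctnnb1 ratio was then 0.03 and 0.005 in Dgcr8-/- over WT, and 0.10 and 0.09 in Dicer-/- over WT.

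Apc, which encodes a part of the destruction complex, had 81.7 CPM (909 counts) in Dgcr8-/- cells and 88.6 CPM (1090 counts) in Dicer-/- cells, against 57.3 CPM (569 counts) in WT cells. It was 1.43-fold higher in Dgcr8-/- than in WT cells (1.28 to 1.59) and 1.55-fold higher in Dicer-/- than in WT cells (1.40 to 1.71), short of the 2-fold limit in both. The knockouts did not differ beyond counting error, with a ratio of Dgcr8-/- to Dicer-/- of 0.923 (0.844 to 1.01). Per 1000 Ctnnb1 counts of the same library, Apc had 106 counts in Dgcr8-/- cells, 110 in Dicer-/- cells and 82.2 in WT cells.

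Axin2, an Axin scaffold that Wnt signals induce and that is widely used as their readout, was the only one of the 8 genes lower than WT in both knockouts. It had 2.70 CPM (30 counts) in Dgcr8-/- cells and 0.975 CPM (12 counts) in Dicer-/- cells, against 4.83 CPM (48 counts) in WT cells. It was 1.79-fold lower in Dgcr8-/- than in WT cells (1.11 to 2.93), which is not a call, and with halved counts the interval of 0.902 to 3.67 includes equal levels. It was 4.96-fold lower in Dicer-/- than in WT cells (2.59 to 10.3; 1.97 to 14.8 with halved counts). Dgcr8-/- cells were 2.77-fold above Dicer-/- cells (1.38 to 5.93; 1.01 to 8.70 with halved counts), which is not a call. Per 1000 Ctnnb1 counts of the same library, Axin2 had 3.51 counts in Dgcr8-/- cells and 1.22 in Dicer-/- cells, against 6.94 in WT cells.

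Sp5, a zinc-finger factor of the SP/KLF family that Wnt signals induce in stem cells, had very few counts. It had 0.719 CPM (8 counts) in Dgcr8-/- cells and 1.62 CPM (20 counts) in Dicer-/- cells, against 0.201 CPM (2 counts) in WT cells. It was 8.07-fold higher in Dicer-/- than in WT cells (1.96 to 71.2; 1.15 to 350.2 with halved counts). The pair of Dgcr8-/- and WT was below 1 CPM in both libraries and was not tested, with a ratio of 3.57 and an interval of 0.713 to 34.5.

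The start regions of Sp5, Axin2 and Tcf7l2 are shown with matches to the TCF/LEF motif, without binding data for these factors. Sequences are from RefSeq tables of build GRCm38.p6, a later build than the mm9 that the submitters' processing notes name, and each line holds the 250 bases before a listed start, with matches to CTTTGAT or CTTTGTT on either strand in capitals. Windows were read for 7 of the 8 genes, 13 starts in all, and motif matches were searched from 250 bases before to 50 after each start.
Sp5, chr2:70474673-70474922, plus strand: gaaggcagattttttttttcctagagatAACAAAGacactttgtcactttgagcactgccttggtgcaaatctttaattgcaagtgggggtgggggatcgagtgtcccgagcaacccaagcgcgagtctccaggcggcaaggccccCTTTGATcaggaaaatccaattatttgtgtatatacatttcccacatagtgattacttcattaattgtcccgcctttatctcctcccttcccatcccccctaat
Axin2, chr11:108920099-108920348, plus strand: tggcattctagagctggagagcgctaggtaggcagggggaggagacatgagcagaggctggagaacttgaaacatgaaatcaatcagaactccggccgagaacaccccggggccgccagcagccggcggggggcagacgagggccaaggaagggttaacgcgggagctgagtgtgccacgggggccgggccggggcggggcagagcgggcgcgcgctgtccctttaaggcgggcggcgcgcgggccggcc
Tcf7l2, second listed start, chr19:55895071-55895320, plus strand: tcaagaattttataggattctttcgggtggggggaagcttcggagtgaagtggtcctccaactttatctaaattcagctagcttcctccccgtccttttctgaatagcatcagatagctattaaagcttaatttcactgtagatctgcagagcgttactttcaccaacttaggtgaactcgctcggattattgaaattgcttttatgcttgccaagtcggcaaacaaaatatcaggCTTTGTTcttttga
Sp5 held 2 matches, AACAAAG starting 222 bases and CTTTGAT starting 104 bases before its start, and the second Tcf7l2 start held CTTTGTT 14 bases before it. The other 11 windows held no match to these letters. Of 32851 windows of 300 bases over all genes, 9.33% held a match. The Axin2 window is 70.0% G and C and the Sp5 window 45.0%, where the median of all windows is 52.7%. The mRNA table has a single row per gene, so counts from the separate starts of Tcf7l2, Lef1, Tcf7 and Ctnnb1 cannot be told apart.

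**Figure D1:**
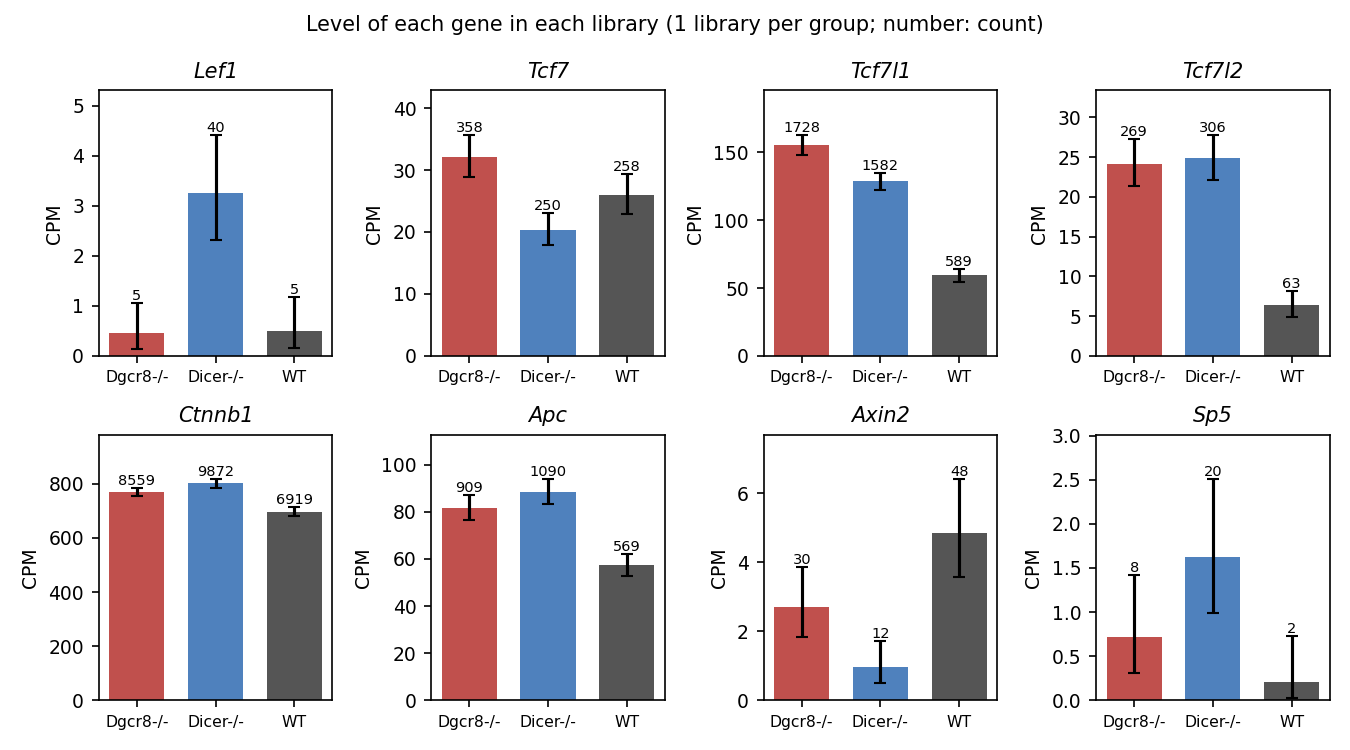
CPM of each of the 8 genes in the Dgcr8-/-, Dicer-/- and WT libraries as bars, with lines for exact 95% Poisson intervals and the count above each. Tcf7l1 and Tcf7l2 are high in both knockout libraries, Ctnnb1 is nearly level at 769, 802 and 697 CPM, and Axin2 is highest in WT at 4.83 CPM.

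By the 2-fold rule on log2(CPM + 1), applied where either library reached 1 CPM, 2 of 6 genes tested were higher in Dgcr8-/- than in WT cells (Tcf7l1 and Tcf7l2) and 0 lower. Over all 13223 genes tested in that pair 14.3% were higher and 8.02% lower. The higher calls made up 64.1% of all calls in that pair, and 53.6% with median-ratio scaling. In Dicer-/- over WT cells, 4 of 8 were higher (Lef1, Tcf7l1, Tcf7l2 and Sp5) and 1 lower (Axin2), beside 16.0% and 9.70% of 13403 genes. Lef1 and Sp5 reached 1 CPM only in Dicer-/- cells and could come out only higher, and Axin2 reached it only in WT cells and could come out only lower, so these 3 calls add nothing to the count. The median log2 ratio of the genes tested was 0.40 in Dgcr8-/- over WT, beside 0.11 for all genes. Both comparisons use the same WT library. Between the knockouts, 0 of 8 genes were higher in Dgcr8-/- than in Dicer-/- cells and 1, Lef1, was lower, beside 4.15% and 5.05% of 12986 genes. Lef1 reached 1 CPM only in Dicer-/- cells in that pair and could come out only lower.

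**Figure D2:**
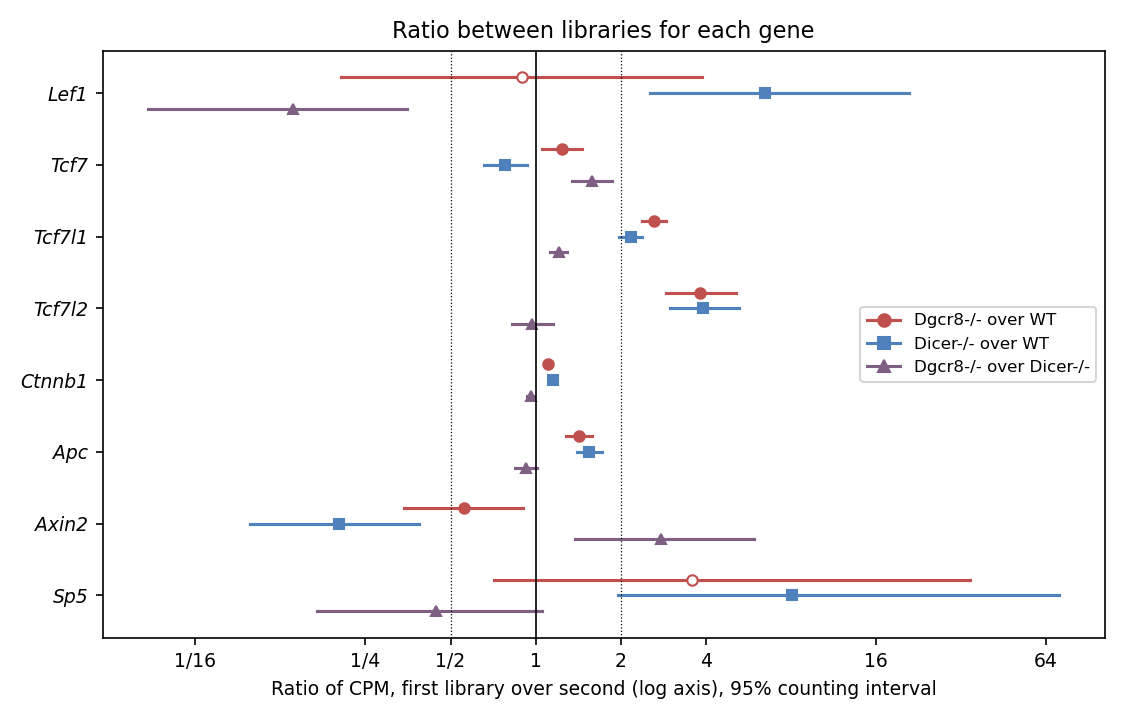
Ratio of CPM between libraries for each of the 8 genes on a log axis, with lines for exact 95% counting intervals and dotted lines at 2-fold. Open symbols mark pairs below 1 CPM in both libraries. Tcf7l1 and Tcf7l2 lie right of 1 against WT in both knockouts, with ratios between 2.17 and 3.92, and Axin2 lies left of it.

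The rest of the pathway was described from 107 further genes in 11 lists by role, of which 81 have a row in the mRNA table and the other 26 were not analysed here. In Dgcr8-/- over WT cells 22 of 79 genes tested were higher and 10 lower (27.8% and 12.7%, beside 14.3% and 8.02% of all genes). In Dicer-/- over WT cells 21 of 80 were higher and 13 lower (26.3% and 16.3%, beside 16.0% and 9.70%). Of those tested, 14 and 17 reached 1 CPM in a single library and could differ in only 1 direction. Among the genes called against WT these were Wnt4, Wnt5a, Wnt6, Wnt10a, Fzd1, Fzd4, Fzd8, Lgr6, Sfrp5, Nkd1, Nkd2, Apc2, Tle2 and, in Dicer-/- cells, Cdx1, so the counts by role below are a description of small lists and are to be read against the same shares of all genes. Between the knockouts, 3 of 71 were higher in Dgcr8-/- than in Dicer-/- cells (Fzd5, Sfrp5 and Cdx1) and 3 lower (Wnt4, Wnt7b and Frat2), 4.23% each way, beside 4.15% and 5.05% of all genes. Sfrp5 and Cdx1 reached 1 CPM only in Dgcr8-/- cells in that pair.

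Of 8 ligand genes tested in Dgcr8-/- over WT cells 2 were higher and 3 lower (25% and 37.5%, beside 14.3% and 8.02% of all genes). Of 9 tested in Dicer-/- over WT cells 3 were higher and 3 lower (33.3% each, beside 16.0% and 9.70%). Of these, 4 and 5 reached 1 CPM in a single library. Wnt3a, a canonical ligand, had 82 counts in Dgcr8-/- cells and 43 in Dicer-/- cells, against 15 in WT cells, and was 4.88-fold higher in Dgcr8-/- than in WT cells (2.79 to 9.12). Wnt7b was 8.02-fold higher in Dicer-/- than in WT cells (4.79 to 14.4) and 3.99-fold lower in Dgcr8-/- than in Dicer-/- cells (2.77 to 5.90). Wnt6 had 7 and 12 counts in Dgcr8-/- and Dicer-/- cells, against 103 in WT cells, 16.5-fold lower (7.72 to 42.0) and 10.6-fold lower (5.84 to 21.3). Wnt5a, a ligand of the non-canonical branch, had 14 and 41 counts in the knockouts and 0 in WT. With WT set to the floor of 3 counts it was at least 4.17-fold and 11.0-fold higher. The exact intervals, which also cover the counting error of the knockout, start at 2.96 and 8.57 (1.29 and 3.98 with halved counts). Wnt10a had 0 counts in Dgcr8-/- cells and 6 in Dicer-/- cells, against 27 in WT cells. It was at least 10.1-fold lower in Dgcr8-/- cells with that library set to the same floor. The exact interval there starts at 7.65 (3.41 with halved counts). Wnt4 had 12 and 42 counts against 2 in WT, and Wnt11, chosen after its values were seen, was lower in both knockouts with 16 and 15 counts against 41. Wls, which carries Wnt proteins to the cell surface, was 3.03-fold higher in Dgcr8-/- (2.35 to 3.94) and 3.25-fold higher in Dicer-/- cells (2.53 to 4.21), whereas Porcn, which acylates them, was at log2 ratios of -0.14 and -0.64.

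Among receptors, 5 of 14 tested were higher and 1 lower in Dgcr8-/- over WT cells, and 3 higher and 1 lower in Dicer-/- over WT cells. The shares were 35.7% and 7.14% in Dgcr8-/- cells and 21.4% and 7.14% in Dicer-/- cells, where all genes gave 14.3% and 8.02%, and 16.0% and 9.70%. In each comparison 3 of the 14 reached 1 CPM in a single library. Fzd2 had 254 counts in Dgcr8-/- cells and 563 in Dicer-/- cells, against 58 in WT cells, 3.91-fold (2.93 to 5.30) and 7.83-fold (5.97 to 10.4) higher. Fzd6 was 4.05-fold (3.14 to 5.29) and 2.71-fold (2.09 to 3.57) higher, and Fzd8 10.7-fold (4.35 to 34.2) and 7.26-fold (2.89 to 23.4) higher from 5 counts in WT. Fzd10 was 2.70-fold higher in Dgcr8-/- than in WT cells (2.16 to 3.40). Fzd1 and Fzd4, chosen after their values were seen, were the remaining calls in Dgcr8-/- over WT cells, with 26 against 5 and 2 against 15 counts. Fzd5 was 3.03-fold lower in Dicer-/- than in WT cells (2.69 to 3.42) and 2.06-fold higher in Dgcr8-/- than in Dicer-/- cells (1.81 to 2.34). In the R-spondin axis 2 of 4 genes tested were higher and 1 lower in both comparisons with WT. These are 50% and 25%, beside the shares of all genes given above, and 2 of the 4 reached 1 CPM in a single library. The receptor gene Lgr4 was 2.92-fold (2.54 to 3.36) and 3.14-fold (2.74 to 3.61) higher, and Znrf3, whose ubiquitin ligase removes Frizzled from the surface, 2.17-fold (1.63 to 2.92) and 2.47-fold (1.87 to 3.29) higher. Lgr6 had 5 counts in each knockout, against 26 in WT.

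The secreted and surface antagonists held the largest difference from WT in the set of 81 on the log2(CPM + 1) scale, while by the plain CPM ratio Cdx1, described below, was farther from WT in Dicer-/- cells. Notum, an enzyme that strips the lipid from Wnt proteins, had 161 CPM (1790 counts) in Dgcr8-/- cells and 169 CPM (2082 counts) in Dicer-/- cells, against 6.54 CPM (65 counts) in WT cells. It was 24.6-fold higher in Dgcr8-/- (19.2 to 32.0) and 25.8-fold higher in Dicer-/- cells (20.2 to 33.6). Apcdd1, a membrane inhibitor, was 4.19-fold (2.79 to 6.49) and 3.84-fold (2.56 to 5.95) higher, and Sfrp2, a secreted Frizzled-like protein, 3.53-fold (2.69 to 4.70) and 3.19-fold (2.43 to 4.25) higher. Sfrp1 was 2.17-fold higher in Dgcr8-/- than in WT cells (2.06 to 2.27) and 1.24-fold higher in Dicer-/- than in WT cells (1.17 to 1.30). Dkk3 and Sfrp5 were lower in Dicer-/- than in WT cells, with 24 against 65 and 9 against 35 counts. In all, 4 of 9 antagonists tested were higher and 0 lower in Dgcr8-/- over WT cells (44.4% and 0%, beside 14.3% and 8.02% of all genes). In Dicer-/- over WT cells 3 were higher and 2 lower (33.3% and 22.2%, beside 16.0% and 9.70%). In these comparisons 1 and 2 of the 9 reached 1 CPM in a single library. Sfrp5 was among them in Dicer-/- over WT cells and could come out only lower.

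Inside the cell, the inhibitors Nkd1 and Nkd2, which bind Dishevelled, reached 1 CPM only in WT cells and could come out only lower. Nkd1 had 8 counts in Dgcr8-/- cells and 6 in Dicer-/- cells, against 35 in WT cells, and Nkd2 had 4 and 10, against 56. Of the 7 transducer genes tested, 0 were higher and 2 lower in Dgcr8-/- over WT cells, and 1 higher and 2 lower in Dicer-/- over WT cells. The shares were 0% and 28.6%, and 14.3% and 28.6%, where all genes gave 14.3% and 8.02%, and 16.0% and 9.70%. Frat2, which encodes a GSK3-binding protein, was higher in Dicer-/- cells alone among the knockouts, 2.47-fold above WT (1.91 to 3.23), and was 2.88-fold lower in Dgcr8-/- than in Dicer-/- cells (2.22 to 3.77). The Dishevelled genes were not called in any pair. In the destruction complex list 2 of 10 were higher in Dgcr8-/- over WT cells, Tnks and Apc2 (16 counts against 2), and 1, Tnks, in Dicer-/- over WT cells. These are 20% and 10%, beside 14.3% and 16.0% of all genes. With halved counts the interval of the Apc2 ratio of Dgcr8-/- to WT, 0.958 to 317, includes equal levels. Tnks, a tankyrase that marks Axin for degradation, was 4.77-fold (3.78 to 6.09) and 2.71-fold (2.12 to 3.50) higher. Axin1, Gsk3b and Tnks2 had log2 ratios to WT between -0.01 and 0.75. The list had a median log2 ratio of 0.16 in Dgcr8-/- and 0.18 in Dicer-/- cells over WT, near the 0.11 and 0.10 of all genes.

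Of 4 partners of beta-catenin at junctions 1, or 25%, was higher in each comparison with WT, beside 14.3% and 16.0% of all genes. Jup, which encodes the close relative plakoglobin, was 2.61-fold (2.43 to 2.80) and 3.68-fold (3.44 to 3.95) higher. Cdh1 (E-cadherin) was 1.93-fold higher in Dgcr8-/- than in WT cells (1.84 to 2.01), and Ctnna1 had log2 ratios of -0.34 and -0.40. Of 13 nuclear cofactors 2 were higher and 1 lower in Dgcr8-/- over WT cells, and 3 higher and 2 lower in Dicer-/- over WT cells. The shares were 15.4% and 7.69%, and 23.1% and 15.4%, where all genes gave 14.3% and 8.02%, and 16.0% and 9.70%. The coactivator genes Crebbp, at 3.63-fold (2.64 to 5.06) and 3.51-fold (2.56 to 4.89), and Bcl9l, at 2.78-fold (2.03 to 3.86) and 2.24-fold (1.62 to 3.12), were higher in both knockouts. Ctnnbip1, whose product blocks the binding of beta-catenin to TCF factors, was 2.18-fold lower in Dgcr8-/- than in WT cells (1.78 to 2.68). In Dicer-/- cells it was 1.90-fold lower (1.57 to 2.29), which was not a call. Tle4, a corepressor gene chosen after its values were seen, was 2.29-fold higher in Dicer-/- than in WT cells (2.09 to 2.52). In Dgcr8-/- cells it was 1.93-fold higher (1.75 to 2.13), short of a call. Aes and Tle2 were lower in Dicer-/- than in WT cells, Aes by 2.96-fold (2.75 to 3.18) and Tle2 with 4 counts against 25. In Dgcr8-/- cells Aes was 1.53-fold lower than in WT cells (1.44 to 1.62) and Tle2 had 11 counts, neither a call.

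Of 4 further Wnt targets 2 were higher and 2 lower in both comparisons with WT. That is 50% each way, where all genes gave 14.3% and 8.02%, and 16.0% and 9.70%. The list names 9 genes and is not a full set of Wnt targets, some of which may stand in the other role lists. Cdx1, a caudal homeobox gene, had 85 counts in Dgcr8-/- cells and 9 in Dicer-/- cells, against 333 in WT cells, 4.39-fold lower (3.45 to 5.64) and 45.9-fold lower (23.9 to 101.2). It had the order of Axin2, highest in WT and lowest in Dicer-/- cells. Genes outside this list of targets had that order too, among them Porcn, Fzd5, Aes, Wnt11, Dkk3, Sfrp5, Nkd1, Tle2, Pygo2, Ctnna1 and Gsk3a. The order is therefore not particular to Cdx1 and Axin2. Myc had 5.84 and 5.85 CPM in the knockouts, against 26.2 CPM in WT, 4.48-fold lower in both. Ccnd1 (cyclin D1) was 5.47-fold (5.11 to 5.86) and 4.46-fold (4.16 to 4.77) higher, and Tnfrsf19, a receptor of the tumour necrosis factor family, 6.46-fold (3.87 to 11.4) and 4.46-fold (2.64 to 7.98) higher. Of 4 genes known to be repressed by TCF7L1 in stem cells, 1, Klf2, was called. That share is 25%, beside 14.3% and 16.0% of all genes called higher. Klf2 was higher, 12.0-fold (11.0 to 13.0) in Dgcr8-/- and 8.60-fold (7.93 to 9.35) in Dicer-/- cells over WT. Nanog, Esrrb and Tfcp2l1 had log2 ratios between -0.37 and 0.51. Tcf7l1 was higher in the same libraries.

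**Figure D3:**
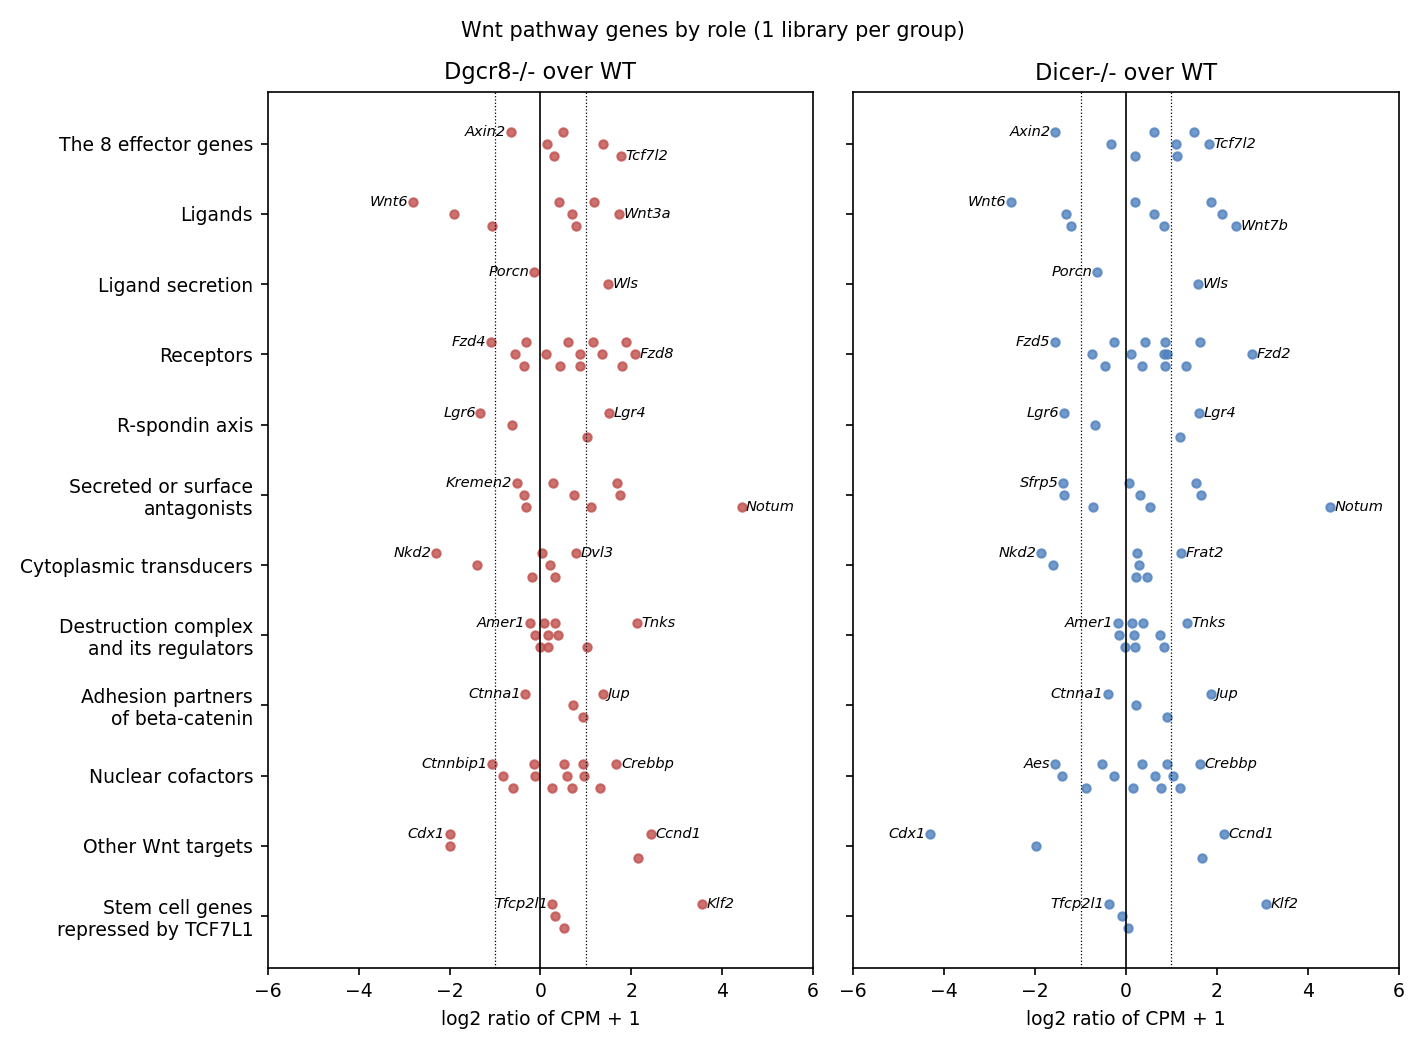
The log2 ratio of CPM + 1 to WT for each gene tested, by role, in Dgcr8-/- cells (left) and Dicer-/- cells (right), with dotted lines at 2-fold and the lowest and highest gene of each row named. Both panels use the same WT library. Notum stands farthest right, at 4.42 and 4.50, and Cdx1 farthest left in Dicer-/- cells, at -4.32.

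Markers of other cell types moved between the libraries too. The summed level of 6 neural ectoderm genes was 269 CPM in Dgcr8-/- and 266 CPM in Dicer-/- cells, against 155 CPM in WT cells. They included Pax6 and Nefm, each at 2 counts in WT. The 3 of 8 feeder or stromal genes with a row, Col1a1, Thy1 and Pdgfrb, summed to 11.1 CPM and 2.52 CPM in the knockouts, against 40.1 CPM in WT. The 2 of 6 mesendoderm genes with a row, Eomes and Gsc, summed to 7.64 and 6.34 CPM in the knockouts and 10.2 CPM in WT, with Gsc at 0 in WT. The part of such cells in the differences above was not tested. A smaller share of cells with a transcript and less of it per cell cannot be told apart in these libraries.

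The small RNA library shows which miRNAs reported elsewhere to act on these genes were present in WT cells. APC has been reported as a target of miR-135a, miR-135b, miR-142-3p, miR-27a and miR-27b in human cells, and LEF1, CTNNB1 and AXIN2 as targets of the miR-34 family in human cells. Dkk1, an antagonist gene not analysed here, has been reported as a target of the miR-290 cluster in mouse stem cells. Mature sequences from RefSeq (GRCm38.p6) were found for 11 of the 14 named miRNAs and fall into 5 seeds. They are shown so that the shared seed (bases 2 to 8, in capitals) can be read.
mmu-miR-27a-3p: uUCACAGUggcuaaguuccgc
mmu-miR-27b-3p: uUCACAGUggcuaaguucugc
mmu-miR-135a-5p: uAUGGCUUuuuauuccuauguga
mmu-miR-142-3p: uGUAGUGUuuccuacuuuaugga
mmu-miR-34a-5p: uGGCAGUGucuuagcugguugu
mmu-miR-34b-5p: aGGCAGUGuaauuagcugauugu
mmu-miR-291a-3p: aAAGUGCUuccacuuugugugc
mmu-miR-294-3p: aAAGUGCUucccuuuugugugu
mmu-miR-295-3p: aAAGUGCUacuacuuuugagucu
mmu-miR-302b-3p: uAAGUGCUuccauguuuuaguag
mmu-miR-302d-3p: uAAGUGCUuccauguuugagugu
Of the 2594949 reads over 707 mature miRNAs, miR-27a-3p took 21417 (0.825%, exact Clopper-Pearson 95% interval 0.814% to 0.836%) and miR-27b-3p 3907 (0.151%). MiR-135b-5p took 4668 reads (0.180%), whereas miR-135a-5p took 6 and miR-142-3p 493. The miR-34 family took 3727 reads in all (0.144%), of which miR-34a-5p had 2039, miR-34c-5p 1622 and miR-34b-5p 66. The 6 AAGUGC-seed miRNAs named here took 25.7% of all reads, nearly all from miR-294-3p (10.2%), miR-291a-3p (9.16%) and miR-295-3p (6.31%). Of these 6, miR-302a-3p, miR-302b-3p and miR-302d-3p had 17, 122 and 108 reads. Other miRNAs with this seed were not summed. Beside these levels, Apc was 1.43-fold and 1.55-fold higher in Dgcr8-/- and Dicer-/- cells than in WT cells, and Ctnnb1 1.10-fold and 1.15-fold higher. Axin2 was 1.79-fold lower in Dgcr8-/- cells, which was not a call, and 4.96-fold lower in Dicer-/- cells. Lef1 was 6.45-fold higher in Dicer-/- cells, where it could come out only higher. In Dgcr8-/- cells Lef1 had 5 counts, as in WT cells, and that pair was not tested. Small RNA of the knockouts was not analysed here, and whether any of these miRNAs acts on the genes in these cells was not tested.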

How the data were processed

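The deposited mRNA table gives raw counts for gene rows with a RefSeq entry, and the deposited small RNA table raw counts for mature miRNAs, as read from their whole-number values. Per the submitters' processing notes, Bowtie and build mm9 were used. For the counting tool, annotation and use of strand, nothing is given in the sources used here; per the labels' protocols the mRNA kit was stranded. Empty cells (221 in Dgcr8-/-, 138 in Dicer-/- and 252 in WT) were read as 0. Columns were matched to groups by name.

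Counts were scaled to CPM. Calls were made at 2-fold on log2(CPM + 1), a scale that shrinks the ratios of low genes, where a library of the pair reached 1 CPM. Ratios of CPM have exact conditional binomial intervals and levels exact Poisson intervals; ratios within a library have conditional odds-ratio intervals. All cover counting error only. With 1 library per group no test was possible. Calls and intervals were tried on simulated counts that held counting error only, with changes set only in genes well above the floor. That simulation does not check low-count genes such as Lef1, Sp5 and Axin2, spread between replicates or double counting of mates.

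The genes, role lists and rules were chosen with earlier results of these data known. In each role list and pair, the text names the 3 genes with the largest log2 ratio and the highest-count gene in WT, or part of these. Alternatives changed the pseudocount, floor, scaling (TMM by edgeR 4.0.16, median ratio by DESeq2 1.42.0, in R 4.3.3), fold and shared symbols; halved counts were added after seeing the data. SciPy 1.17.1 gave the intervals.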

Additional observations from a re-analysis of the deposited data

How the results depend on the processing

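TMM and median-ratio scaling left 2 higher and 0 lower of the 8 genes in Dgcr8-/- over WT cells. In Dicer-/- over WT cells they left 3 higher instead of 4, without Tcf7l1, and 1 lower. Under either scaling the role lists had 19 higher instead of 22 in Dgcr8-/- over WT cells, and 20 instead of 21 in Dicer-/- over WT cells. All genes called higher were then 1609 (TMM) and 1558 (median ratio) instead of 1891, and 1919 and 1909 instead of 2144. Removing the floor or summing rows with a shared symbol changed no count. With a pseudocount of 0.1 CPM, Dgcr8-/- over Dicer-/- cells had 1 gene higher (Axin2) and 2 lower (Lef1 and Sp5). The role lists then had 5 of 71 higher and 4 lower in that pair, beside 849 and 1004 of 12986 genes. With a pseudocount of 5 CPM, 2 of the 8 genes were higher and 0 lower in Dicer-/- over WT cells and 0 lower in Dgcr8-/- over Dicer-/- cells. The role lists then had 15 higher and 3 lower in Dgcr8-/- over WT cells, beside 1087 and 411 of 13223 genes. In Dicer-/- over WT cells they had 14 higher and 5 lower, beside 1232 and 591 of 13403 genes. Between the knockouts they had 1 higher and 2 lower, beside 182 and 222 of 12986 genes. With a floor of 5 CPM the 8 genes gave the same 2, 0 and 0. Under this floor and under the pseudocount of 5 CPM, those of the 8 still higher in Dicer-/- than in WT cells were Tcf7l1 and Tcf7l2. With the floor of 5 CPM the role lists had 19 higher and 5 lower in Dgcr8-/- over WT cells, beside 1602 and 696 of 10846 genes. In Dicer-/- over WT cells they had 18 higher and 7 lower, beside 1731 and 916 of 10948 genes. A 1.5-fold rule gave 1 of the 8 genes lower (Axin2) in Dgcr8-/- over WT cells and 2 higher and 2 lower between the knockouts. With it 34 of 79 and 33 of 80 role-list genes were higher in Dgcr8-/- and Dicer-/- over WT cells. All genes higher by that rule were 3581 of 13223 and 3759 of 13403. Between the knockouts 13 of 71 role-list genes were higher and 6 lower, beside 1642 and 1618 of 12986 genes. A 4-fold rule gave 0 calls among the 8 genes in every pair. It gave 6 higher and 2 lower role-list genes in each comparison with WT. Over all genes it gave 342 higher and 159 lower in Dgcr8-/- over WT cells, and 539 and 233 in Dicer-/- over WT cells. Between the knockouts it gave 1 higher and 0 lower role-list genes, beside 63 and 114 of all genes. Lef1, Sp5 and Axin2 rest on at most 48 counts in a library, and counting error is widest for them among the 8 genes. No paired analysis was possible because each group has 1 library.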

Other observations

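Tcf7l2 had the largest log2(CPM + 1) ratio to WT of the 8 genes; with a pseudocount of 0.1 CPM, Sp5, Lef1 and Axin2 were farther from WT in Dicer-/- cells. Of 10580 other named genes at 5 CPM or more in a library, the 5 with the most similar pair of ratios over the 3 libraries were Plekhg3, Pdk4, Kif13a, Zbtb41 and Fnbp1. They lay within a distance of 0.042 of it in the plane of the log2 ratios of Dgcr8-/- and Dicer-/- cells to WT. Pdk4, which encodes a kinase that inhibits pyruvate dehydrogenase, had 173 counts in Dgcr8-/- cells and 194 in Dicer-/- cells, against 37 in WT cells. The kinesin gene Kif13a had 709 and 833 counts, against 182 in WT cells. With 3 libraries many genes share such a pattern.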
